A study of Mus musculus with 10 samples.

Results

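The baseline transcriptome described here is that of intact mpkCCD cells, the 5 samples of the series in which Camk2d was not deleted, out of 10 samples in all. They were chosen by their labels, which call them wild type or intact, and no measured value entered the choice. mpkCCD is an immortalized cell line from the cortical collecting duct of a transgenic mouse that carries the SV40 large T antigen under a pyruvate kinase promoter, and its labels give the strain background as C57BL/6. The 5 samples came from 3 cell lines. These were the parental line (1 sample) and 2 clones, intact clone 1 and intact clone 2, each with 2 samples. The clones each grew from a single sorted cell after transfection with a Cas9 and GFP plasmid carrying a guide against Camk2d, and kept an unmutated Camk2d gene. The parental line, itself a subclone of an earlier mpkCCD line, was not transfected. All lines were grown on permeable filters for 7 days with 0.1 nM dDAVP, an agonist of the V2 vasopressin receptor. The first 4 days were in complete medium with serum, insulin, triiodothyronine and epidermal growth factor, and the last 3 days in simple medium without them. Dexamethasone at 50 nM, a synthetic glucocorticoid, was present in both media, as were selenite and transferrin. No sample without dDAVP was analysed here, so the levels below describe cells under dDAVP and say nothing of its effect.

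Principal cells are the main cells of the collecting duct. Vasopressin binds the V2 receptor on their basolateral side, the receptor acts through a stimulatory G protein and adenylyl cyclase to raise cyclic AMP, and protein kinase A then drives the water channel aquaporin-2 to the apical membrane and raises transcription of its gene. The same cells reabsorb sodium through the epithelial sodium channel ENaC under the control of aldosterone, and secrete potassium. Intercalated cells, which lie between them, secrete acid or base instead.

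Levels are the authors' TPM, a relative abundance of transcripts that divides the reads of a gene by its length, so that genes can be compared with each other. TPM sum to the same total in every sample and keep no record of depth. The depth is therefore unknown, values carry no error from counting, and a value of 0 is given only as listed at 0. Such a value can also be a failed estimate. Of the 13 protein-coding genes of the mitochondrial genome, which every cell uses, 5 were listed at 0 in all 5 samples (mt-Co2, mt-Co3, mt-Atp6, mt-Atp8 and mt-Nd4l). A 0 in this table is therefore not shown to be low expression, for these or for other genes. A mean is the mean over the 3 lines, with the 2 samples of a clone averaged first, and its SD is over those 3 line values (n = 3). Whether both samples of a clone came from different cultures is not given in the labels. Their values were identical for 1.13% and 1.25% of the genes at 1 TPM or more, so neither was a copy of the other. No group was compared with another, and the SD and the range over the 5 samples are the only errors given.

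Of 55414 rows in the table, 24001 were above 0 in at least 1 intact sample and 16609 in all 5. A mean of at least 1 TPM was reached by 12999 genes, 23.5% of the rows, and 12086 genes were at or above 1 TPM in every sample. Levels of 10 TPM were reached by 9238 genes, 100 TPM by 2478 and 1000 TPM by 77. By biotypes of GENCODE M21, which covered 94.0% of the rows, protein-coding genes held 96.1% of the summed TPM. Of 21876 protein-coding rows, 50.7% were at or above 1 TPM and 42.3% were under 0.1 TPM, with a median of 1.27 TPM. These shares are the background for the gene lists that follow.

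The transcriptome was not dominated by a few genes. The 10 most abundant held 4.38% of the summed TPM, the 100 most abundant 16.2% and the 1000 most abundant 50.3%. In single samples the 10 most abundant genes held between 4.04% and 4.55%. Between 12853 and 12903 genes per sample were at or above 1 TPM.

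**Figure D1:**
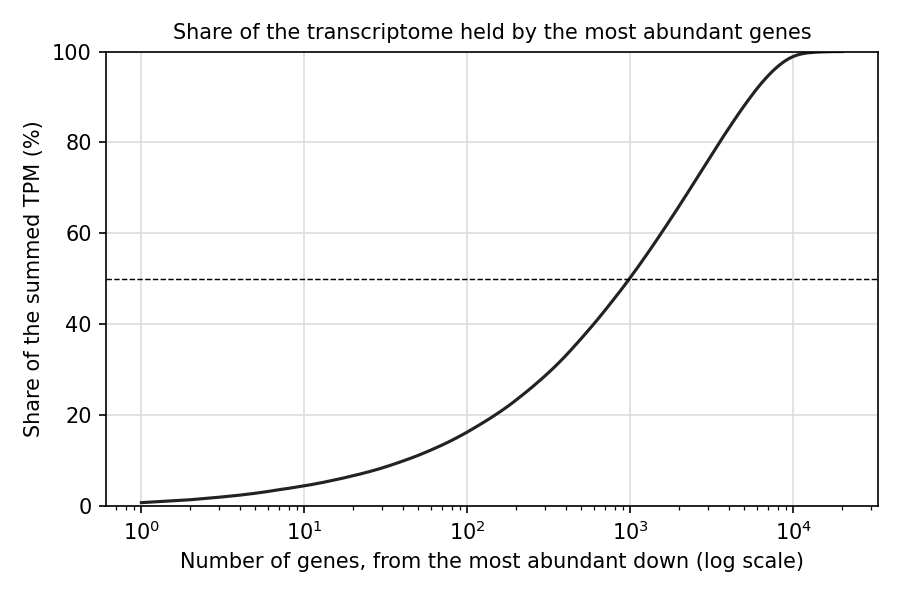
Share of the summed TPM (percent, y axis) held by the most abundant genes, counted from the highest mean level down (log x axis), from the mean over the 3 intact lines. The curve passes 16.2% at 100 genes and crosses the dashed line at 50% after 989 genes.

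The most abundant nuclear gene was Malat1 (ENSMUSG00000092341), a long noncoding RNA retained in the nucleus, with a mean of 6709 ± 590 TPM. It had 6027 TPM in the parental line, 6001 and 8128 in the samples of intact clone 1, and 7129 and 6940 in those of intact clone 2. The next row, Gm37376 (ENSMUSG00000102349), had 6428 ± 789 TPM and lies within the Malat1 gene on the opposite strand in GENCODE M21. Its level was close to that of Malat1 in every sample, with a Malat1 to Gm37376 ratio of 0.99 to 1.09. The library kit as described does not keep strand, so reads from this overlap cannot be assigned to either gene with certainty.

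Krt18 (ENSMUSG00000023043), a keratin of simple epithelia, was the most abundant protein-coding gene at 5508 ± 215 TPM. It had 5321 TPM in the parental line, 5730 and 5754 in intact clone 1, and 5413 and 5511 in intact clone 2. Aqp2 (ENSMUSG00000023013), the apical water channel, had rank 4 among all rows with 4515 ± 860 TPM. The parental line had 5502 TPM of Aqp2, the samples of intact clone 1 had 3773 and 4084, and those of intact clone 2 had 4338 and 3890. All 4 clone samples thus lay below the parental line, and the clones overlapped each other.

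Genes of the cytoskeleton, of metabolism and of iron storage followed. Actb, cytoplasmic beta-actin, had 4229 ± 216 TPM. Gstm1, a glutathione S-transferase, had 3996 ± 506 TPM, with 3241 and 3585 TPM in the samples of intact clone 1 and 4203 to 4339 in the other 3. Its relative Gstm2 had 1992 ± 332 TPM and was also lowest in intact clone 1, at 1604 and 1715 TPM. Both are multigene family members, and in GENCODE M21 81.1% of the 50-base windows of Gstm1 transcripts are its own, against 94.3% for Gstm2. Atp5b, the catalytic beta subunit of mitochondrial ATP synthase, had 3821 ± 89.9 TPM.

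The ferritin chains Ftl1 and Fth1 had 2927 ± 92.8 and 2474 ± 33.2 TPM. The division of reads is less certain for Ftl1, of which 49.1% of the windows are its own, than for Fth1 with 98.4%. Shares of own windows were also low for S100a11 (58.9%) and Krt8 (73.1%) and, among genes named further on, for mt-Co1 (48.9%), Slc25a5 (66.2%), Hoxd3 (39.8%) and Rhbg (39.6%), so their levels are uncertain in the same way. S100a6 and S100a11, small calcium-binding proteins, had 2667 ± 191 and 2210 ± 122 TPM. Itm2b, an integral membrane protein of the secretory pathway, had 2463 ± 260 TPM. Wfdc2, a secreted protein with whey acidic protein domains, had 2082 ± 115 TPM, and Pfn1, the actin-binding protein profilin, 2104 ± 91.5. Syne2, which links the nucleus to the cytoskeleton, had 1907 ± 105 TPM and Krt8, the partner of Krt18, 1811 ± 100. Cdh16, the kidney-specific cadherin, closed the 20 most abundant nuclear genes with 1782 ± 64.7 TPM. A further row of this group, ENSMUSG00002076377 with 2410 ± 304 TPM, has no symbol in the table.

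**Figure D2:**
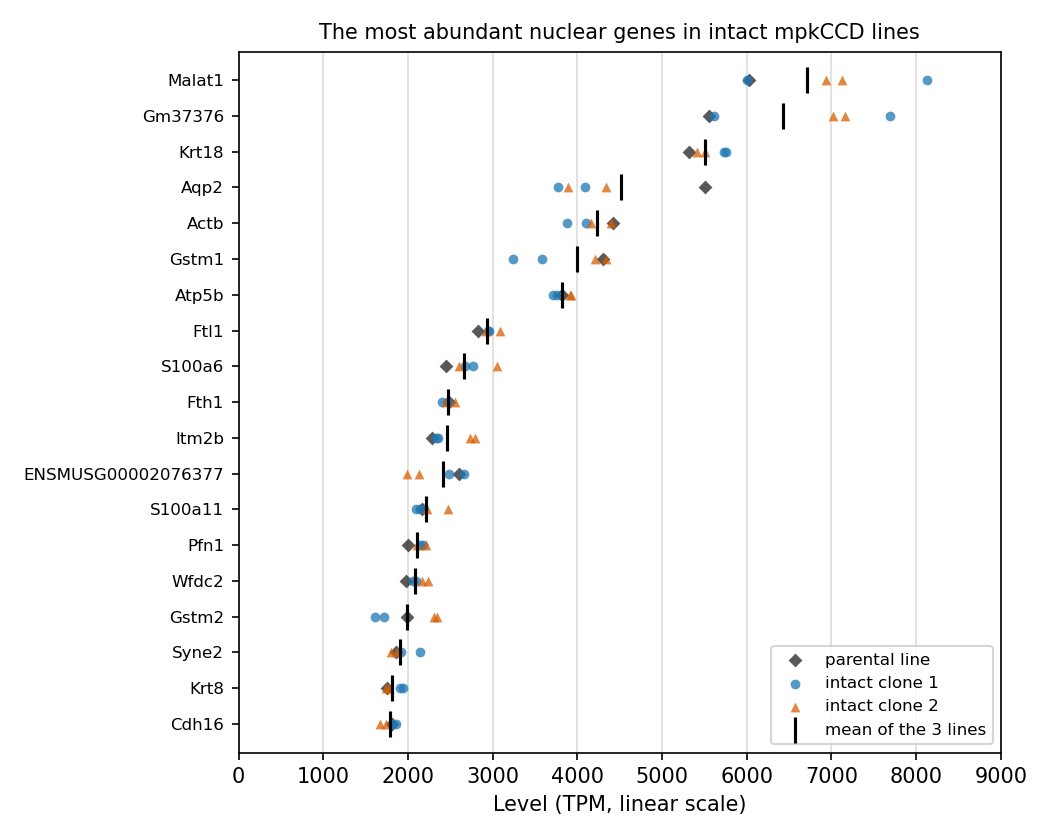
Level in TPM (linear x axis) of 19 of the 20 most abundant nuclear genes in the 5 intact samples, with the parental line as diamonds, intact clone 1 as circles, intact clone 2 as triangles and the mean of the 3 lines as a vertical bar. Malat1 and Gm37376 have the widest ranges over the 5 samples, and Aqp2 has the largest SD over the 3 lines. Aqp2 is highest in the parental line at 5502 TPM, and Gstm1 and Gstm2 are lowest in both samples of intact clone 1.

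The order within this top group was firm only in places. Of the 19 pairs of neighbours in the ranking, 18 had ranges over the 5 samples that overlapped. The exception was Atp5b, whose lowest sample lay above the highest of Ftl1. Membership was steadier than order, since 16 genes were among the 20 most abundant nuclear genes in every sample and 25 were in at least 1. The coefficient of variation over the lines was between 1.34% and 19.1% for these 20 genes, with a median of 5.51%.

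Counted by class, nuclear genes of oxidative phosphorylation held 3.93% ± 0.0583 of the summed TPM (SD, n = 3 lines) and 81 of 88 were at or above 1 TPM. The 76 cytosolic ribosomal protein genes, all at or above 1 TPM, held 3.35% ± 0.114. Actin, profilin, cofilin, thymosin, myosin light chain and tropomyosin genes held 1.38% ± 0.0136, and annexins and S100 proteins 1.1% ± 0.0384. Keratins held 0.997% ± 0.0437, but only 8 of 50 keratin rows were at or above 1 TPM. Glutathione S-transferases held 0.793% ± 0.0852, ferritin 0.54% ± 0.00976 and metallothioneins 0.177% ± 0.0269. Aquaporins held 0.457% ± 0.0861, nearly all of it Aqp2.

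Genes of the mitochondrial genome held 0.915% ± 0.0957, from 10 of 37 rows at or above 1 TPM. Only 7 of its 13 protein-coding genes were among them, so the share leaves out the 5 listed at 0, and mt-Nd3, with at most 0.35 TPM in any sample. The highest was mt-Cytb, cytochrome b of complex III, with 3015 ± 431 TPM. It had 2559 and 2494 TPM in intact clone 1 against 3176 to 3362 in the other 3 samples. mt-Nd1, a subunit of complex I, had 2215 ± 163 TPM, and mt-Co1, the catalytic subunit of cytochrome oxidase, 1421 ± 234 TPM, with intact clone 1 again lowest for both.

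The identity of the cells was checked against genes of principal cells. Of 26 genes for the transport of water, sodium and potassium, 21 were at or above 1 TPM (80.8%, against 50.7% of protein-coding rows) and 12 were at or above 100 TPM. The 3 defining markers were all abundant. Aqp2 is given above. Avpr2, the V2 receptor, had 235 ± 10 TPM, with 235 in the parental line, 238 and 252 in intact clone 1, and 222 and 228 in intact clone 2. Scnn1a, the alpha subunit of ENaC, had 168 ± 20.6 TPM, with 172 in the parental line, 147 and 146 in intact clone 1, and 181 and 193 in intact clone 2. All 3 were well above 1 TPM in every sample.

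The aquaporins were uneven. Aqp3, a basolateral water channel of principal cells, had 1.73 ± 0.74 TPM, with a highest sample of 3.34. Aqp4, the other basolateral channel, had 3.31 TPM in the parental line, 7 and 8.54 in intact clone 1, and 0.1 and 0.18 in intact clone 2, so the 3 lines did not overlap. Aqp5, a channel of glands and lung, was the second most abundant aquaporin at 50.8 ± 11.9 TPM, with 36.4 to 64.7 TPM over the samples. The Aqp2 level was at least 65.3 times that of Aqp5 and at least 1223 times that of Aqp3 within a sample. Aqp6, an aquaporin of intercalated cell vesicles, had 3.06 ± 0.329 TPM. In RefSeq, Aqp5 and Aqp6 are the next 2 protein-coding genes after Aqp2 on chromosome 15 and their levels fell in that order. The closest other neighbours, Faim2 and Racgap1, had 0.467 ± 0.266 and 175 ± 24.5 TPM. Avpr1a, the V1a receptor, was listed at 0 in all 5 samples.

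**Figure D3:**
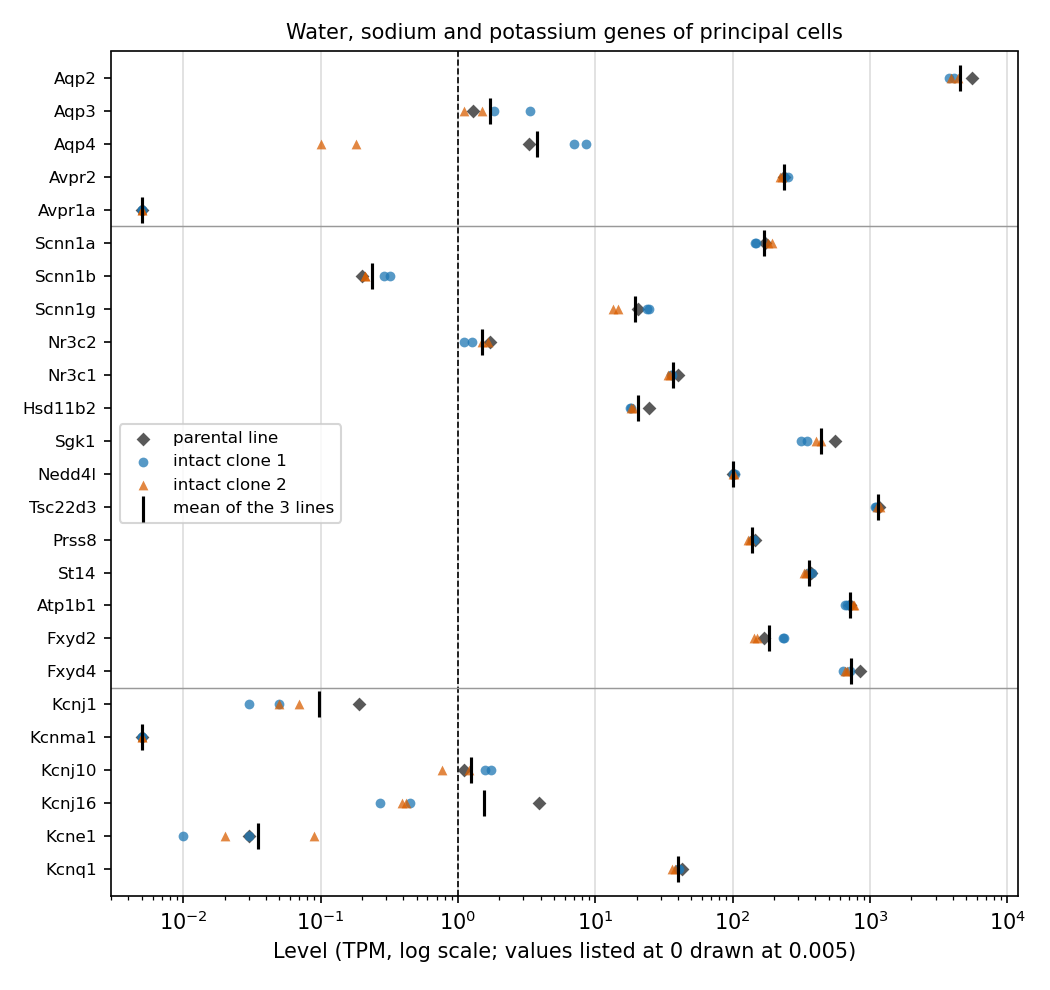
Level in TPM (log x axis, values listed at 0 drawn at 0.005) of 25 of the 26 water, sodium and potassium genes of principal cells in the 5 intact samples, with the parental line as diamonds, intact clone 1 as circles, intact clone 2 as triangles and the mean of the 3 lines as a bar. The dashed line marks 1 TPM, and grey lines part the water, sodium and potassium genes. Aqp2 stands at 4515 TPM on average, while Avpr1a and Kcnma1 are listed at 0 in every sample.

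The subunits of ENaC were not balanced. Scnn1g, the gamma subunit, had 19.6 ± 5.1 TPM, with 20.6 in the parental line, 23.6 and 24.6 in intact clone 1, and 13.4 and 14.7 in intact clone 2. Scnn1b, the beta subunit, had 0.238 ± 0.058 TPM and never passed 0.32. Within a sample the alpha subunit was 5.92 to 13.4 times the level of gamma and 459 to 920 times that of beta. The order alpha over gamma over beta held in all 5 samples, without overlap.

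The sodium pump was well represented. Atp1b1, its beta subunit, had 713 ± 41.5 TPM. Fxyd4, the small pump regulator of the collecting duct, had 730 ± 103 TPM, and Fxyd2, its relative of other nephron segments, 184 ± 46.3. The channel-activating proteases Prss8 (prostasin) and St14 (matriptase) had 139 ± 7.38 and 360 ± 20.4 TPM. Nedd4l, the ubiquitin ligase that removes ENaC from the membrane, had 101 ± 0.926 TPM, the narrowest spread relative to its mean of the 15 sodium genes.

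Among steroid hormone genes the glucocorticoid receptor Nr3c1 was at 36.8 ± 2.87 TPM and the mineralocorticoid receptor Nr3c2 at 1.5 ± 0.271, a ratio of 20.4 to 31.8 within a sample. Hsd11b2, which inactivates glucocorticoids and so lets aldosterone act on the mineralocorticoid receptor, had 24.5 TPM in the parental line and 17.8 to 18.9 in the clones. Tsc22d3, a gene known for induction by glucocorticoids, was at 1141 ± 33.2 TPM. Sgk1, a kinase induced by corticosteroids, had 558 TPM in the parental line, 314 and 348 in intact clone 1, and 438 and 406 in intact clone 2. The medium held dexamethasone, and no sample without it was analysed here, so its part in these levels was not tested.

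Potassium channels of principal cells were the weakest part of the set. Kcnj1, the secretory channel ROMK, was at 0.0967 ± 0.0814 TPM, with a highest sample of 0.19. Kcnma1, the pore of the BK channel, was listed at 0 in all 5 samples. The basolateral channel Kcnj10 had 1.25 ± 0.353 TPM. Its partner Kcnj16 had 3.92 TPM in the parental line and 0.27 to 0.45 in the clones. Kcne1, a beta subunit, had 0.035 ± 0.018 TPM, while Kcnq1, a voltage-gated channel, had 40.1 ± 2.71. Ranked among all 99 rows with a Kcn symbol, the highest was Kcnk1, a channel of the K2P family, with 446 ± 36.3 TPM. It was followed by Kcnq1, by Kcnk5, another channel of the K2P family, with 21.2 ± 4.64 TPM, by the beta subunit Kcnab2 with 5.19 ± 0.633, and by Kcnn1 with 3.44 ± 0.507. Only 9 of the 99 were at or above 1 TPM.

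The pathway from the V2 receptor to protein kinase A had genes above 1 TPM at each step. Of 12 genes listed for it, 11 were at or above 1 TPM. Gnas, the stimulatory G protein, had 1001 ± 15.3 TPM. Of the adenylyl cyclases listed, Adcy6 had 33.3 ± 2.38 TPM and Adcy3 0.615 ± 0.189, a ratio of 42.6 to 89.7 within a sample. The catalytic subunits Prkaca and Prkacb had 138 ± 7.14 and 44.2 ± 3.25 TPM. Among regulatory subunits, Prkar1a had 324 ± 5.61 TPM, Prkar2b 92.5 ± 6.66 and Prkar2a 29.2 ± 0.733.

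Further along, Creb1, a transcription factor phosphorylated by protein kinase A, had 33.5 ± 3.29 TPM, and Arrb2, beta-arrestin 2, 29.5 ± 1.72. Pde4d, a phosphodiesterase that breaks down cyclic AMP, was lower at 3.11 ± 0.356 TPM. Camk2d, the kinase deleted in the other 5 samples of the study, had 141 TPM in the parental line, 134 and 135 in intact clone 1, and 129.21 and 122.68 in intact clone 2. The samples labelled intact therefore all carried its transcript at similar levels.

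Of the transcription factors of the collecting duct lineage, 14 of 18 were at or above 1 TPM and 7 at or above 100 TPM. The highest was Elf3, an ETS factor of epithelia, with 609 ± 41.1 TPM. Pax8, a paired box factor of kidney tubules, had 336 ± 12.2 TPM and its relative Pax2 11.4 ± 0.87. Ehf, another ETS factor, had 284 ± 32.7 TPM. Gata3, which acts in the ureteric bud from which the collecting duct grows, had 251 ± 5.95 TPM against 3.03 ± 1.46 for Gata2. Hoxb7, a homeobox gene of the same lineage, had 246 ± 12.3 TPM, Hoxd8 114 ± 2.87 and Hoxd3 9.26 ± 1.23.

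Klf5 had 102 ± 5.47 TPM and Tfcp2l1, a grainyhead-family factor of the collecting duct, 62.3 ± 3.16. Grhl2, a regulator of epithelial junction genes, had 58.7 ± 3.17 TPM and Emx2 34.0 ± 2.45. Tfap2b, Lhx1 and Emx1 were each listed at 0 in all 5 samples. The remaining factor under 1 TPM was Elf5, an ETS factor of mature principal cells. Elf5 was listed at 0 in 4 samples and at 0.11 TPM in the other.

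All 14 genes of epithelial adhesion and keratin filaments were above 10 TPM and 11 were above 100. Besides Krt18, Krt8 and Cdh16, Krt19 had 1331 ± 87.2 TPM and Krt7 734 ± 13.4. The Krt18 to Krt8 ratio was nearly constant over the samples, from 2.95 to 3.11. Both genes are neighbours on chromosome 15 and pair in 1 filament. In contrast, the next keratin genes in that cluster, Krt78, Krt79 and Krt4, had at most 0.187 TPM on average. Cdh1, E-cadherin, had 921 ± 38.1 TPM, Epcam 734 ± 8.83 and the apical raft protein Mal 443 ± 20.5.

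Of the tight junction genes, Cldn7 had 737 ± 8.72 TPM, Cldn3 431 ± 13.3 and Cldn4 85.2 ± 6.39. The scaffold Tjp1 (ZO-1) had 36.1 ± 2.9 TPM and Ocln, occludin, 62.7 ± 6.2. Cldn8, a claudin of the collecting duct, was the most variable gene of this set. It had 505 TPM in the parental line, 52.4 and 59.8 in intact clone 1, and 300 and 296 in intact clone 2. These levels did not overlap between lines, and each held in both samples of a clone.

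To show the sequence before the start of these genes, 300 bases (250 before to 50 after the start site) were read from RefSeq on GRCm38.p6 for 4 of them. Aqp2 and Avpr2 are shown as the defining water genes and Krt18 as the most abundant coding gene. Slc34a1, the proximal tubule phosphate transporter, is shown as a gene listed at 0 in all 5 samples. All lie on the plus strand. Capitals mark matches on either strand to 4 motifs. The core promoter motif searched was TATAAA. The letters TGACGT are part of the cyclic AMP response element. Factors of the ETS family bind sites with CCGGAAG. Zinc finger factors such as Gata3 bind sites with AGATAA. The motif TGACGT was added after the Aqp2 sequence had been seen.
Aqp2, chr15:99578806-99579105: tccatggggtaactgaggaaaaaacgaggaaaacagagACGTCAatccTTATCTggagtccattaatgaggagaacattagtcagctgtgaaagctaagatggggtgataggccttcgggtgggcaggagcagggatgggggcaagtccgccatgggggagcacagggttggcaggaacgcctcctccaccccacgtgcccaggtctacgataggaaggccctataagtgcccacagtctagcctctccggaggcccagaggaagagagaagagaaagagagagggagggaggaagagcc
Avpr2, chrX:73891852-73892151: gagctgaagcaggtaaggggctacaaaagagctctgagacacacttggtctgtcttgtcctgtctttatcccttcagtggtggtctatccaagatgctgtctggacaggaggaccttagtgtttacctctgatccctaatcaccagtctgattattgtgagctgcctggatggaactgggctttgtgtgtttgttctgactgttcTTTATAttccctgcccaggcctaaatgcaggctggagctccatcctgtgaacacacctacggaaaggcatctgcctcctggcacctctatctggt
Krt18, chr15:102027966-102028265: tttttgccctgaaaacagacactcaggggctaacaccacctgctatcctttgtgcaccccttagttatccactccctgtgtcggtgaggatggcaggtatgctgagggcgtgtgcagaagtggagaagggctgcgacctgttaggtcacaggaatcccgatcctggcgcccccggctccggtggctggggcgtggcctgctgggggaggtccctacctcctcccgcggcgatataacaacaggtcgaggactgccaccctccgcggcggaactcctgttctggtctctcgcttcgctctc
Slc34a1, chr13:55399398-55399697: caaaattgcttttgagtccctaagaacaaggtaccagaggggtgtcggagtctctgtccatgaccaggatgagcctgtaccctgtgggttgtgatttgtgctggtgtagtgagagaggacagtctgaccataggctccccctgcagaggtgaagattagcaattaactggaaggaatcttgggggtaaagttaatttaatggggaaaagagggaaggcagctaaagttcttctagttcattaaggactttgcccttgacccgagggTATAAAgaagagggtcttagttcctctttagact

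The Aqp2 window held TGACGT (as ACGTCA) starting 212 bases before the start site and AGATAA (as TTATCT) starting 202 bases before it. The Avpr2 window held TATAAA on the minus strand from 45 bases before the start and the Slc34a1 window held it on the plus strand from 16 bases after the start. The Krt18 window held none of the 4. A match is a run of letters and not a measured site.

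Across genes, the share of windows with these letters differed between sets of genes, given here as a description. Windows were found for 8888 protein-coding genes at or above 1 TPM and for 6787 under 0.1 TPM, of which 5064 were listed at 0 in all 5 samples and 1723 were above 0 in at least 1. TATAAA was in 6.26% of the former and 22% of the latter. CCGGAAG went the other way, with 20% and 2.77%. TGACGT was in 12.7% against 4.46%, and AGATAA in 5.76% against 15%. The complete cyclic AMP element TGACGTCA, which contains TGACGT, was in 3.45% against 1.09%. The median GC content was 61.3% in windows of the genes at or above 1 TPM and 49.0% in those under 0.1 TPM. Among the 1723 genes above 0, a set formed after the data had been seen, TATAAA was in 15.1%, CCGGAAG in 4.35%, TGACGT in 5.28%, TGACGTCA in 1.28% and AGATAA in 10.6%, with a median GC content of 53.7%. Base composition thus differed between the same sets, and its part in the shares was not tested. Among the 54 nuclear coding genes at 1000 TPM or more with a window, TGACGT was in 13 and TATAAA in 6. Of the 60 principal, signalling, factor and epithelial list genes at or above 1 TPM, 39 had a window, and TGACGT was in 2 of them and TATAAA in 5. Over all 16740 protein-coding genes with a window, TGACGT was in 8.97%, TATAAA in 13.1%, CCGGAAG in 12.1% and AGATAA in 9.77%.

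Genes that mark other segments of the nephron were mostly under 0.1 TPM or listed at 0. Over the podocyte, proximal tubule, thin limb, thick ascending limb, distal convoluted tubule and connecting tubule lists, 10 of 52 genes were at or above 1 TPM (19.2%, against 50.7% of protein-coding rows), 36 were under 0.1 TPM, and 21 were listed at 0 in all 5 samples. None reached 100 TPM. The summed level of all 52 was between 134 and 153 TPM in a sample, against 8103 to 10425 TPM for the 26 principal cell genes. Aqp2, with 4515 TPM on average, was the largest part of the latter sum. The median gene had 0.00667 TPM in the 52 and 38.4 TPM in the 26.

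Of 20 proximal tubule genes, 17 were under 0.1 TPM and 11 were listed at 0 in every sample. These 11 included the phosphate transporter Slc34a1, the organic anion transporters Slc22a6 and Slc22a8, and the transcription factor Hnf4a. The genes at or above 1 TPM were Keg1 with 11.3 ± 1.13 TPM, Lrp2, the endocytic receptor megalin, with 10.3 ± 2.38, and Slc4a4, a sodium bicarbonate cotransporter, with 6.63 ± 1.44. Cubn, cubilin, the partner of megalin, had 0.02 TPM on average.

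In the podocyte list the slit diaphragm gene Nphs1 had at most 0.03 TPM in any sample, and Wt1 and Ptpro were listed at 0. Podxl, podocalyxin, had 29.3 ± 0.837 TPM and Synpo, synaptopodin, 17.2 ± 2.66. In the thin limb list, Bst1, an ectoenzyme, had 30.6 ± 9.49 TPM, with 44.3 and 38.8 in intact clone 2 and 24.8 to 25.6 in the other 3 samples. Fst, follistatin, had 2.52 ± 0.713 TPM and Slc14a2, the urea transporter UT-A, at most 0.02 TPM.

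Bsnd, barttin, a subunit of chloride channels, had 25 TPM in the parental line, 17.93 and 17.95 in intact clone 1, and 8.63 and 8.89 in intact clone 2, without overlap between lines. Bsnd alone of 10 thick ascending limb genes was at or above 1 TPM. Slc12a1, the cotransporter NKCC2, Umod, uromodulin, and Cldn10 were listed at 0 in all samples.

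No gene of the distal convoluted tubule list reached 1 TPM. Slc12a3, the thiazide-sensitive cotransporter, had 0.0617 TPM and the magnesium channel Trpm6, the highest of the list, 0.692 ± 0.216. In the connecting tubule list Calb1, Trpv5, Slc8a1 and Klk1 were listed at 0 in every sample, and S100g, calbindin-D9k, had 1.14 ± 0.817 TPM.

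**Figure D4:**
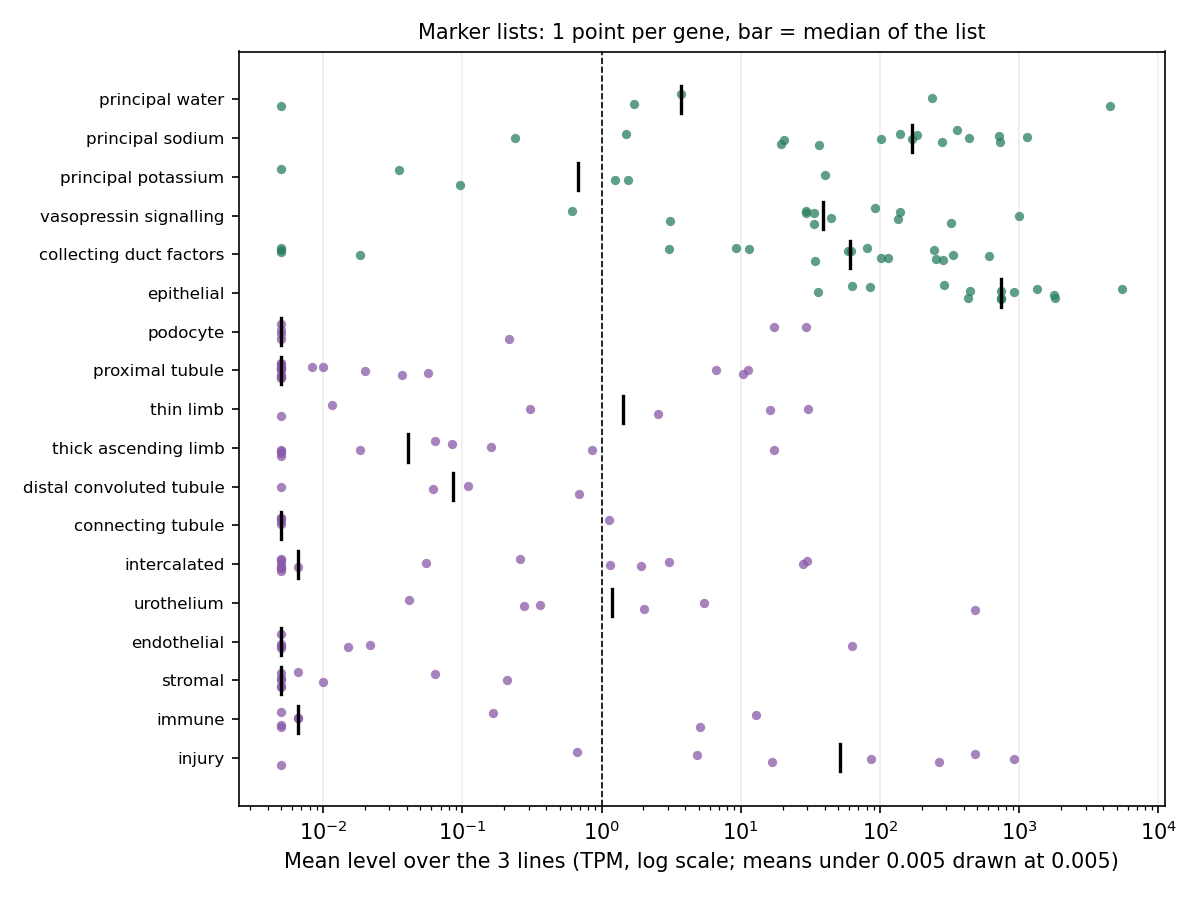
Mean level over the 3 intact lines in TPM (log x axis, means under 0.005 drawn at 0.005) of each gene of 18 marker lists, 1 point per gene, with the median of each list as a black bar. The dashed line marks 1 TPM. Medians of the principal cell, signalling, factor and epithelial lists (green) lie to its right, except principal potassium at 0.67 TPM. Medians of the other lists (purple) lie to its left, except thin limb at 1.42, urothelium at 1.19 and injury at 51.5 TPM.

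Genes of intercalated cells had uneven values. Of 15, 5 were at or above 1 TPM and 9 were under 0.1 TPM, among them 5 listed at 0 in all samples. The anion exchangers Slc4a1 and Slc26a4 and the factor Foxi1 had at most 0.03 TPM in any sample. Atp6v1b1, a subunit of the proton pump, had 28.1 ± 0.824 TPM. Rhcg, an ammonia channel, had 88.8 TPM in the parental line, 0.69 and 0.67 in intact clone 1, and 0.33 and 0.27 in intact clone 2, so that its mean of 29.9 stands for 1 line only. In bulk RNA, fewer cells that express a gene and less RNA of it per cell cannot be told apart. Rhbg and the factor Hmx2 had 1.94 ± 0.25 and 1.15 ± 0.13 TPM.

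Markers of cells outside the tubule were mostly at or near 0. Of 24 endothelial, stromal and immune genes, 3 were at or above 1 TPM and 19 were under 0.1 TPM, among them 10 listed at 0 in all samples. The 3 were Egfl7 with 62.9 ± 7.58 TPM, Csf1r with 12.8 ± 2.15 and Cd68, a lysosomal protein, with 5.09 ± 0.603. The defining genes of the same cells were at or near 0. Cdh5, Kdr, Emcn and Tek of endothelium and Adgre1 and C1qa of macrophages were listed at 0 in all samples, and Ptprc had 0.167 TPM. In the stromal list no gene reached 1 TPM. Its highest was Col1a1 with 0.21 ± 0.193 TPM, and Vim, the intermediate filament vimentin of mesenchymal and many cultured cells, was listed at 0 in every sample.

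Of 6 urothelium genes, 3 were at or above 1 TPM. Upk1a, a uroplakin of the bladder surface, had 485 ± 55.0 TPM, with 406 to 541 over the samples, while Upk2 had 5.49 ± 1.27, Upk1b 2.01 ± 0.73, Upk3a 0.363 and the basal keratin Krt5 0.0417. Of 8 genes known for a rise in injured tubules, 6 were at or above 1 TPM. Lcn2, lipocalin-2, had 926 TPM in the parental line, 717 and 725 in intact clone 1, and 1178 and 1069 in intact clone 2. Krt20 had 483 ± 38.5 TPM, Clu, clusterin, 267 ± 97, Spp1, osteopontin, 86.3 ± 33.6, Sox9 16.8 ± 2.04 and Cd44 4.88 ± 1.09. Clu and Spp1 were lowest in the parental line and highest in intact clone 2, without overlap between lines. Havcr1 (KIM-1), the defining injury gene of proximal tubule, was listed at 0 in all samples, and Vcam1 had 0.667 TPM.

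Solute carriers are the largest family of transporters. Of 384 rows with an Slc symbol, 195 were at or above 1 TPM and 27 at or above 100 TPM. The 5 highest were the mitochondrial adenine nucleotide carrier Slc25a5 with 564 ± 29.0 TPM, the phosphate carrier Slc25a3 with 468 ± 21.6, Slc3a2, the heavy chain of amino acid transporters, with 417 ± 13.3, Slc25a39 with 403 ± 27.5 and Slc25a4, another adenine nucleotide carrier, with 328 ± 14.6. Of the 5, 4 are carriers of the mitochondrial inner membrane, a family with 40 of 47 members at or above 1 TPM.

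The spread between samples set how finely these levels could be read. For genes at 100 to 1000 TPM the median SD of log2(TPM + 1) was 0.035 between the samples of intact clone 1, 0.034 between those of intact clone 2 and 0.0647 between the 3 lines. At 1 to 10 TPM the values were 0.115, 0.114 and 0.159. At 1000 TPM or more they were 0.028, 0.0352 and 0.0787. The spread between lines was larger than within clones in each range. The medians are not strictly comparable. SDs within a clone rest on 2 values and SDs between lines on 3, and a median of SDs from fewer values runs lower. Line values of the clones were means of 2 samples, which acts the other way. Of 12999 genes at or above 1 TPM, 467 (3.59%) had lines at least 2-fold apart on the TPM + 1 scale and 269 (2.07%) at least 4-fold. Among the 87 list genes at or above 1 TPM, 9 were at least 2-fold apart. In falling order of the fold, 8 of these were Rhcg, Cldn8, Aqp4, Kcnj16, Bsnd, S100g, Spp1 and Clu.

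**Figure D5:**
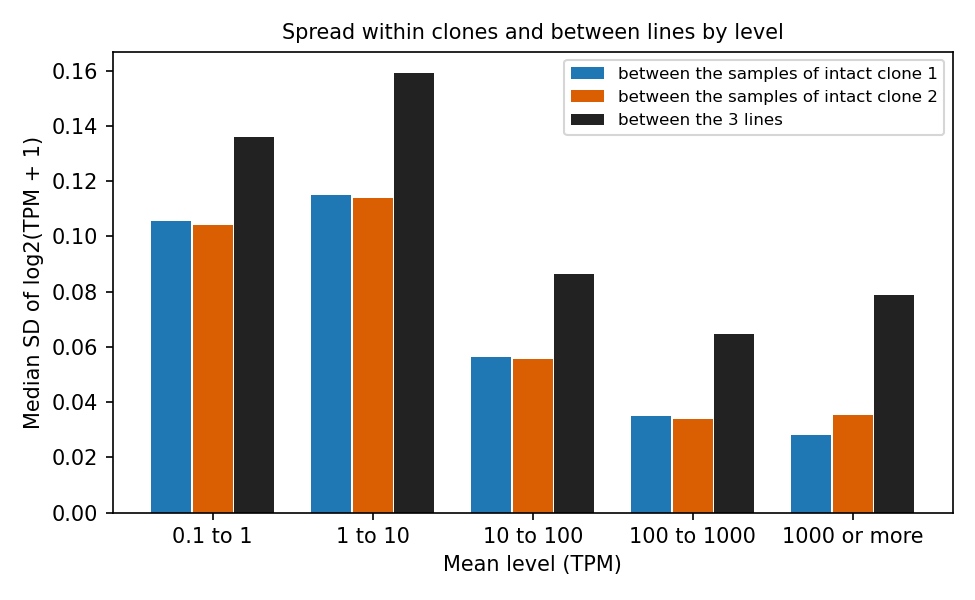
Median SD of log2(TPM + 1) (y axis, from 0) by range of mean level in TPM (x axis), between the samples of intact clone 1, between those of intact clone 2 and between the 3 lines. In every range the bar between lines is the tallest, with 0.159 at 1 to 10 TPM and 0.0647 at 100 to 1000 TPM, and below 1 TPM the added 1 TPM holds the SD down.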

How the data were processed

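RNA of mpkCCD cells was copied and amplified with a kit for low RNA input that does not mark strand, and sequenced as 50-base read pairs. The authors aligned reads with STAR to the mouse genome of an Ensembl release, estimated levels with RSEM and deposited them as TPM with 2 decimals for 10 samples. TPM keep no depth, so no counting error was derived. Only the 5 intact columns were used here, and the 5 knockout columns were left out. Levels were averaged within a clone and then over the 3 lines, with no test, since no groups were compared. The genes named were the 20 highest nuclear and 3 highest mitochondrial genes, all members of the principal, signalling, factor and epithelial lists, in every other list the highest member and those at or above 1 TPM, and the 5 highest Slc, Kcn and Aqp genes. A few genes that meet this rule are not reported here, though they stay in the counts. Other genes named were chosen after their values were seen. The gene lists and members were chosen with earlier results of these data known. Biotypes, overlaps and shared 50-base windows came from GENCODE M21 and promoters from RefSeq, both on GRCm38. These are older than the authors' annotation, and no coordinate was moved between them. Alternatives were other averages, pseudocounts, scalings, thresholds and samples left out. Python 3.11.15, numpy 2.4.6, pandas 2.3.3 and matplotlib 3.10.9 were used, and the averaging was tested on simulated data.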

Additional observations from a re-analysis of the deposited data

Results flagged for a closer look

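In 6 of 116 named genes (5.17%), 1 of the 5 intact samples lay apart from the other 4 by Dixon's criterion, which compares the gap to the nearest sample with the whole range. Chance alone marks about 1 in 20 groups of this size. The 5 samples are not independent, since 4 of them are pairs from a clone.

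In 3 of the 6 the parental line was the highest. Rhcg, the ammonia channel, had 88.78 TPM there against 0.27 to 0.69 in the clone samples. Kcnj16, a basolateral potassium channel, had 3.92 TPM against 0.27 to 0.45. Hsd11b2, which inactivates glucocorticoids, had 24.51 TPM against 17.76 to 18.86. In the other 3 genes a single clone sample was the lowest, apart also from its partner of the same clone. Cldn3, a claudin, had 386.72 TPM in the second sample of intact clone 1. Hoxb7 had 219.13 TPM in the first sample of intact clone 1. Aqp6 had 1.88 TPM in the first sample of intact clone 2 and 3.49 in its partner.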

How the results depend on the processing

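Of 1532 alternative values of the 128 named genes, 1465 moved by less than 1 SD over the lines. The other 67 came from the parental line alone (40), from rescaling without mitochondrial and ribosomal protein genes (23) and from leaving out 1 sample (4). The median of the lines, the mean of the 5 samples and the mean without the parental line could not move by 1 SD. That follows from having only 3 line values, so these settings do not show that the levels are robust. Of 215 alternative values of the summaries, 12 counted as moved, all of them shares. Shares were judged by the SD over the lines, but counts by a wide fold limit that none passed. The counts still depended on the threshold. Means of at least 0.1, 0.5 and 5 TPM were reached by 18018, 14341 and 10435 genes. Of 105 genes of other cell types, 27 were at or above 1 TPM and a further 12 between 0.1 and 1 TPM. Rescaling without mitochondrial and ribosomal protein genes gave 1.45% for the actin class, 1.15% for annexins and S100 proteins, 0.564% for ferritin, 1.04% for keratins and 4.1% for oxidative phosphorylation, and the 10 and 1000 most abundant genes then held 4.52% and 49.7%. The parental line alone gave 1.06% for annexins and S100 proteins, 0.556% for aquaporins, 3.23% for ribosomal proteins and 3.87% for oxidative phosphorylation. The median of the lines gave 1.4% for the actin class. Leaving out each sample in turn gave 12970 to 13006 genes at or above 1 TPM, 20 to 21 of the principal cell genes and 26 to 27 of the genes of other cell types. No paired analysis was possible because only samples of 1 group were described and no result comes from a test. With TPM alone, the depth that limits the low values is unknown.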

Other observations

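Further gene families were counted after their values were seen. The homeobox clusters, which keep the position of a cell's origin along the body, were unequal. In the Hoxb cluster 9 of 10 genes were at or above 1 TPM, led by Hoxb7, Hoxb9 with 76.9 ± 4.99 TPM and Hoxb2 with 53.2 ± 2.23 (SD, n = 3 lines). In the Hoxa cluster 8 of 11 were, led by Hoxa10 with 38.6 ± 5.59 TPM, and in the Hoxd cluster 5 of 9, led by Hoxd8 and Hoxd9 with 61.2 ± 2.0. None of the 9 Hoxc genes reached 1 TPM, and 7 of them were listed at 0 in all 5 samples.

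Of 24 claudins, 10 were at or above 1 TPM. Beside those described in the report, Cldn6 had 538 ± 10.5 TPM and Cldn9 242 ± 37.6. Of 47 nuclear receptors, 24 were at or above 1 TPM. The highest was Nr2f6 with 301 ± 3.41 TPM, followed by the oxysterol receptor Nr1h2 with 114 ± 1.12 and the retinoid X receptor Rxrb with 85.1 ± 1.73. The uroplakin relatives Upk3bl and Upk3b had 162 ± 36.9 and 101 ± 18.2 TPM, beside the 485 TPM of Upk1a.

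At 100 TPM or more, 34 rows were not protein coding in GENCODE M21 or had no entry there. Of these, 10 overlapped another gene on the same strand and 8 on the opposite strand, and 9 were processed pseudogenes. One such row is Gm26377, a 108-base miRNA entry within Eef1a1, with 665 to 1180 TPM over the samples. How many of its reads belong to Eef1a1 was not tested.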
